A study of Mus musculus with 12 samples.

Results

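The segments of the immunoglobulin light chain loci were described in 12 bulk RNA libraries of cultured mouse B cell precursors. Members were the rows of the deposited expression table whose symbols begin with Igkv, Igkj, Iglv or Iglj, or with Iglc and a digit, together with Igkc, which gave 180 of 47069 rows. Of these, 168 belong to the κ locus (162 V segments, 5 J segments and the constant gene Igkc) and 12 to the λ locus (3 V, 5 J and 4 constant genes). A value above 0 in at least 1 library was present for 148 members, and 32 were at 0 in all 12 libraries. Values are FPKM (fragments per kilobase of transcript, scaled to library depth), and the whole fragments behind them were recovered from the steps of the FPKM values.

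All cultures began from hematopoietic stem cells and grew in Iscove's medium with IL7. There were 4 groups of 3 libraries. Control libraries (numbers 242, 249 and 251) came from cells of control mice sorted for B220. β-catenin libraries (244, 255 and 262) came from B220-sorted cells of Mb1-Cre x Catnb lox(ex3) mice, in which a Cre driven by the B lineage gene Mb1 (Cd79a) removes exon 3 and leaves a β-catenin that is not degraded. The other 6 libraries came from wildtype cells that were not sorted, kept overnight without (untreated) or with 40 nM of the GSK3 inhibitor LY2090314 (inhibitor), with the numbers 242, 249 and 251 in both groups. The sources used here do not say whether the controls carried Cre, or whether a number stands for 1 mouse. P-values therefore measure the spread between libraries. Gene-level values do not check the removal of exon 3.

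An immunoglobulin light chain is encoded by a V segment joined to a J segment by RAG1 and RAG2, with the product spliced to a constant exon. In mice most light chains are κ. Pro-B and large pre-B cells carry a surrogate light chain in its place, and transcription of the unrearranged κ locus and V to J joining begin in small pre-B cells, as IL7 signalling declines and IRF4 increases. A fragment counted on a J or constant segment can come from a rearranged or an unrearranged transcript, and the deposited values do not separate them.

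The κ locus members span chr6:67555497-70726966 and the λ members chr16:19061618-19260859 (GRCm38). The 5 κ J segments lie within chr6:70722562-70723927 on the plus strand. On the minus strand of chromosome 16, Iglj1 lies at chr16:19063225-19063262 and Iglj3 at chr16:19067041-19067078. The J sequences are shown because J segments and Igkc carry the change with the inhibitor. Capitals mark the codons for Phe-Gly-X-Gly, the turn that ends the third hypervariable loop of a light chain. The motif, searched by translation in 3 frames, was found in 8 of the 10 J segments (80.0%). Igkj3, which is known to be non-functional in mice, and Iglj3p lacked it.
Igkj1: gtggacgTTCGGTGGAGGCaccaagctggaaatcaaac
Igkj2: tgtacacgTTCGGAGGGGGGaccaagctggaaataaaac
Igkj3: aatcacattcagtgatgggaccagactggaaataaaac
Igkj4: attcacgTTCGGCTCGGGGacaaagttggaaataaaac
Igkj5: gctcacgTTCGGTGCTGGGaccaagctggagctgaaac
Iglj1: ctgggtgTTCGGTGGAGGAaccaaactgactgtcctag
Iglj3: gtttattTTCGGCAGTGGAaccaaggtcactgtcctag

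The last 60 bases of 8 κ V segments on which the results turn follow, as transcribed. They come from the GENCODE M21 transcripts, as do the J sequences above, read 5′ to 3′. On the minus strand (GRCm38) lie Igkv6-20 at chr6:70335841-70336507, Igkv9-124 at chr6:67942074-67942540, Igkv12-89 at chr6:68834846-68835307, Igkv4-86 at chr6:68910411-68910973, Igkv4-90 at chr6:68807179-68807708 and Igkv13-85 at chr6:68930269-68930734. On the plus strand lie Igkv14-118-2 at chr6:68066369-68066828 and Igkv14-111 at chr6:68256389-68256869. These extents include the intron between the leader and V exons. Capitals mark the last codons for Tyr-X-Cys, whose cysteine anchors the third loop. The motif was found, in any of 3 frames, in the last 60 bases of 103 of 104 V segments not annotated as pseudogenes (99.0%), and was not searched in pseudogenes such as Igkv14-118-2. The first 3 were lower in the β-catenin or inhibitor libraries. Igkv14-111 was among the 2 most abundant V segments of each sorted library, and the last 4 are neighbours that were higher in the inhibitor libraries.
Igkv6-20: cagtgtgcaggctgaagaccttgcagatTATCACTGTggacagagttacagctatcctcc
Igkv9-124: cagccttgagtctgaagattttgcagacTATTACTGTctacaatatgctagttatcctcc
Igkv14-118-2: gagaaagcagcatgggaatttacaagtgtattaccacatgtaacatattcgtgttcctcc
Igkv14-111: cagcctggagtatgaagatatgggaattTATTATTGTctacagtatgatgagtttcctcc
Igkv12-89: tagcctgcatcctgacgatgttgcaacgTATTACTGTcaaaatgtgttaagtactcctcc
Igkv4-86: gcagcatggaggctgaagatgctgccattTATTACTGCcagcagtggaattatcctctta
Igkv4-90: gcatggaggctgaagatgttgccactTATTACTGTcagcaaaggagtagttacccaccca
Igkv13-85: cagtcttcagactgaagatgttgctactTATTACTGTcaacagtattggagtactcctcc

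Counted fragments per library ranged from 31944983 to 49815361, of which 2253 to 62487 fell on light chain members. The summed FPKM of 7 B lineage markers (Cd79a, Cd79b, Ebf1, Pax5, Vpreb1, Igll1 and Blnk) was 4242 to 4624 in the control libraries and 36.4 to 1371 in the β-catenin libraries. It was 4221 to 6066 in the untreated and 692 to 1359 in the inhibitor libraries. The lowest value belonged to β-catenin library 244. The summed level of 7 NK and innate lymphoid markers was 701 to 3348 FPKM in the β-catenin libraries, against 18.8 to 41.4 in the controls, and that of 8 T cell markers was 454 to 1038 against 67.9 to 71.0. All 7 NK and innate lymphoid markers reached 1 FPKM in each β-catenin library, against 4 to 6 in the controls. Both unsorted libraries numbered 249 held high levels of 9 myeloid markers, 7771 and 7888 FPKM, against 60.2 to 493 in the other unsorted libraries. The myeloid sums run over the 10 rows that carry these 9 symbols. In the sorted libraries the myeloid markers summed to 124 to 630 FPKM with stabilised β-catenin and 18.2 to 38.5 in the controls. The plasma cell markers summed to 691 to 1054 FPKM in the inhibitor libraries and 1044 to 1111 in the untreated libraries. In the same groups 8 markers of immature and mature B cells summed to 14.8 to 153 and 83.2 to 411. In the sorted libraries the plasma cell markers summed to 162 to 700 FPKM with stabilised β-catenin and 829 to 932 in the controls. Those of immature and mature B cells overlapped there, at 128 to 493 and 87.0 to 279. Of these sums, Cd74 alone held 235, 74.4 and 292 FPKM in β-catenin libraries 244, 255 and 262 and 31.2, 141 and 87.9 in the controls. In the same β-catenin libraries 3, 4 and 5 of the 8 markers reached 1 FPKM, against 6 in each control. The erythroid markers summed to at most 1.94 FPKM. The part of these cells in the results below was not tested. In bulk RNA, fewer cells of a type and less RNA per cell cannot be told apart.

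The κ constant gene was the most abundant member in each library, and it was higher in each inhibitor library than in its untreated partner. Igkc stood at 816, 565 and 671 FPKM in the untreated libraries 242, 249 and 251, and at 1576, 847 and 1590 FPKM in the inhibitor libraries of the same numbers. The inhibitor library was higher in each pair, by 1.93-fold, 1.5-fold and 2.37-fold, and the groups did not overlap. The log2 fold change of Igkc was 0.92 ± 0.28 (SE), which did not pass the threshold of 0.05 without pairing (limma, Benjamini-Hochberg adjusted p = 0.0662) and passed it with the library number as a block (adjusted p = 0.00241). Same-numbered unsorted libraries deviated together, so the block is also printed for some of the members whose call it changed. The count of all calls with it is given below.

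The 5 κ J segments were higher as well. Igkj1, the most upstream, was at 112, 122 and 203 FPKM in the untreated and 397, 308 and 555 FPKM in the inhibitor libraries, with no overlap. Its log2 fold change was 1.53 ± 0.29 (SE, adjusted p = 0.0155, limma), and with the block the adjusted p was 0.000134. Igkj2 to Igkj5 had log2 fold changes of 0.98 to 1.09, with adjusted p from 0.0613 to 0.115 without the block and from 0.000405 to 0.00523 with it. J usage also differed: Igkj1 took 18.1% to 19.0% of κ J fragments in the inhibitor libraries and 12.9% to 14.4% in the untreated libraries. In the sorted libraries the Igkj1 share was 13.9% to 16.5% in controls and 14.5% to 20.5% with stabilised β-catenin, with overlap. The non-functional Igkj3 was counted like the rest, at 11.7% to 22.0% of κ J fragments over the 12 libraries. The 5 J segments are nearly equal in length, so their shares can be compared with each other.

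**Figure D1:**
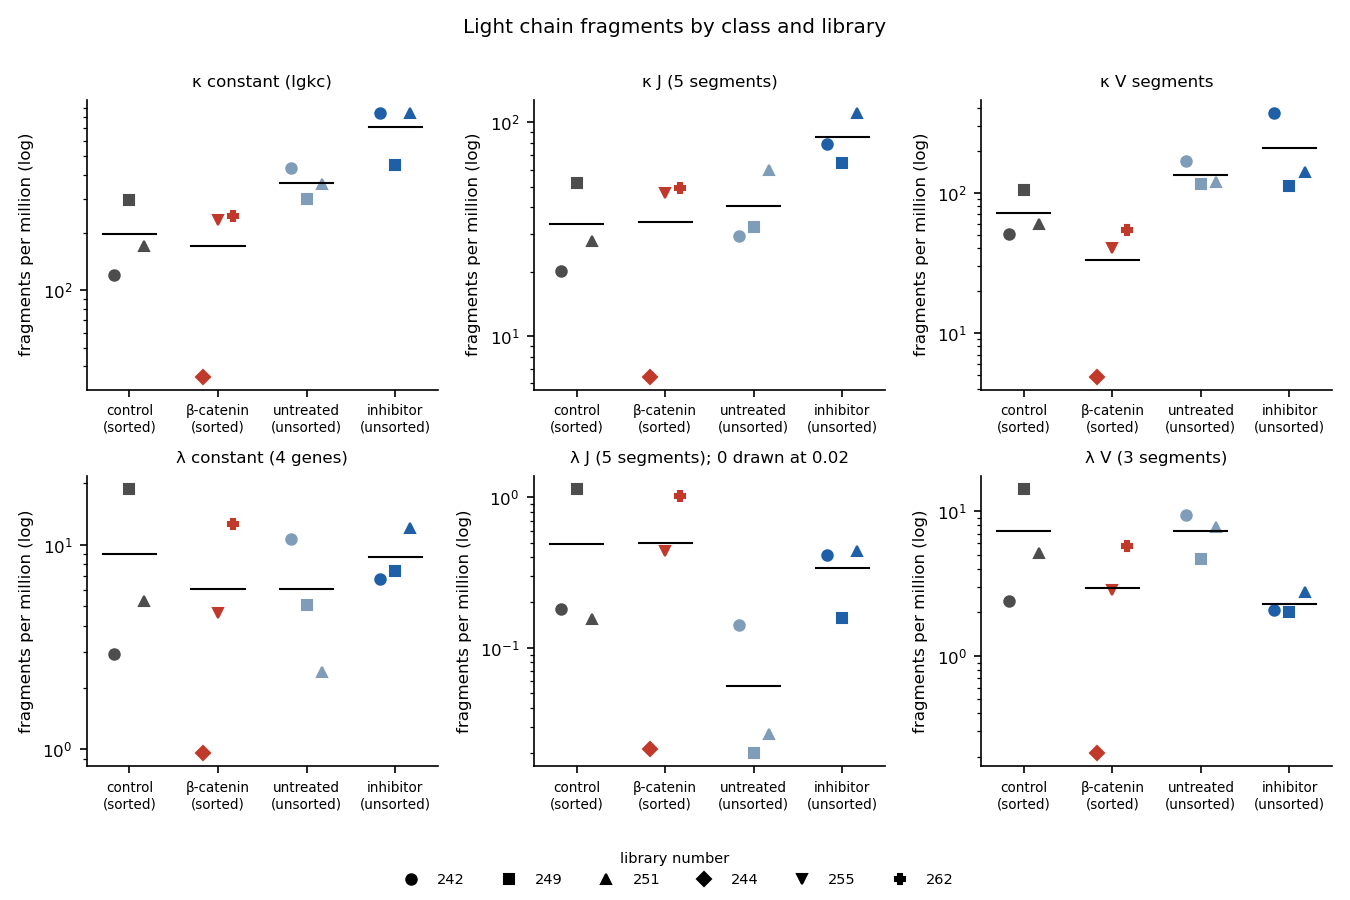
Fragments per 1000000 counted fragments (fpm, log axes) for each class of light chain member, by group; symbols are library numbers and bars are means of 3 libraries. Igkc and κ J fragments are higher in the inhibitor than in the untreated libraries without overlap, and β-catenin library 244 is lowest in each κ panel.

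Classes were summed as fpm, the fragments per 1000000 counted fragments, which are not divided by segment length. A longer segment can yield more of them, so fpm and ratios of fragments are compared between libraries, not between classes. κ J segments held 29.5, 32.4 and 59.8 in the untreated and 79.3, 64.8 and 110.9 fpm in the inhibitor libraries. The group means were 40.6 ± 16.7 (SD, n = 3) and 85.0 ± 23.6, a 2.09-fold difference. The κ V fragments were 168.6, 114.4 and 118.8 fpm untreated and 372, 112 and 141 with the inhibitor. Library 242 lay above its untreated partner by 2.21-fold, while the other pairs had ratios of 0.98 and 1.19 and the groups overlapped. For 100 Igkc fragments there were 38.8, 38.0 and 33.3 κ V fragments in the untreated libraries and 44.4, 24.9 and 16.7 in the inhibitor libraries, lower in 2 of the 3 pairs and with overlap.

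In the sorted libraries Igkc and the κ J segments did not pass the test, while κ V fragments were few relative to both. Igkc was at 226, 558 and 321 FPKM in the controls and at 66.5, 437 and 458 FPKM in β-catenin libraries 244, 255 and 262. Its log2 fold change was -0.53 ± 0.80 (SE, adjusted p = 0.633, limma), and 0.38 (adjusted p = 0.411) without library 244. The 5 κ J segments had log2 fold changes from -0.48 to -0.02 with adjusted p of at least 0.711. κ V fragments stood at 50.6, 104.0 and 59.8 fpm in the controls and at 4.87, 40.2 and 54.5 fpm with stabilised β-catenin.

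The ratio of κ V to Igkc fragments separated the sorted groups in each library, 244 included. For 100 Igkc fragments the controls held 42.0, 35.0 and 35.0 κ V fragments, and the β-catenin libraries 13.8, 17.3 and 22.4. The means were 37.4 ± 4.0 (SD, n = 3) and 17.8 ± 4.3. Against κ J fragments the same ratio was 2.002 to 2.51 in the controls and 0.753 to 1.10 in the β-catenin libraries. Igkc fragments per κ J fragment differed less, 5.71 to 6.15 against 4.93 to 5.47, also without overlap. Whether these ratios follow the mix of cells in a library was not tested. The ratios are sums over the members and are given as a description, without a test.

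**Figure D2:**
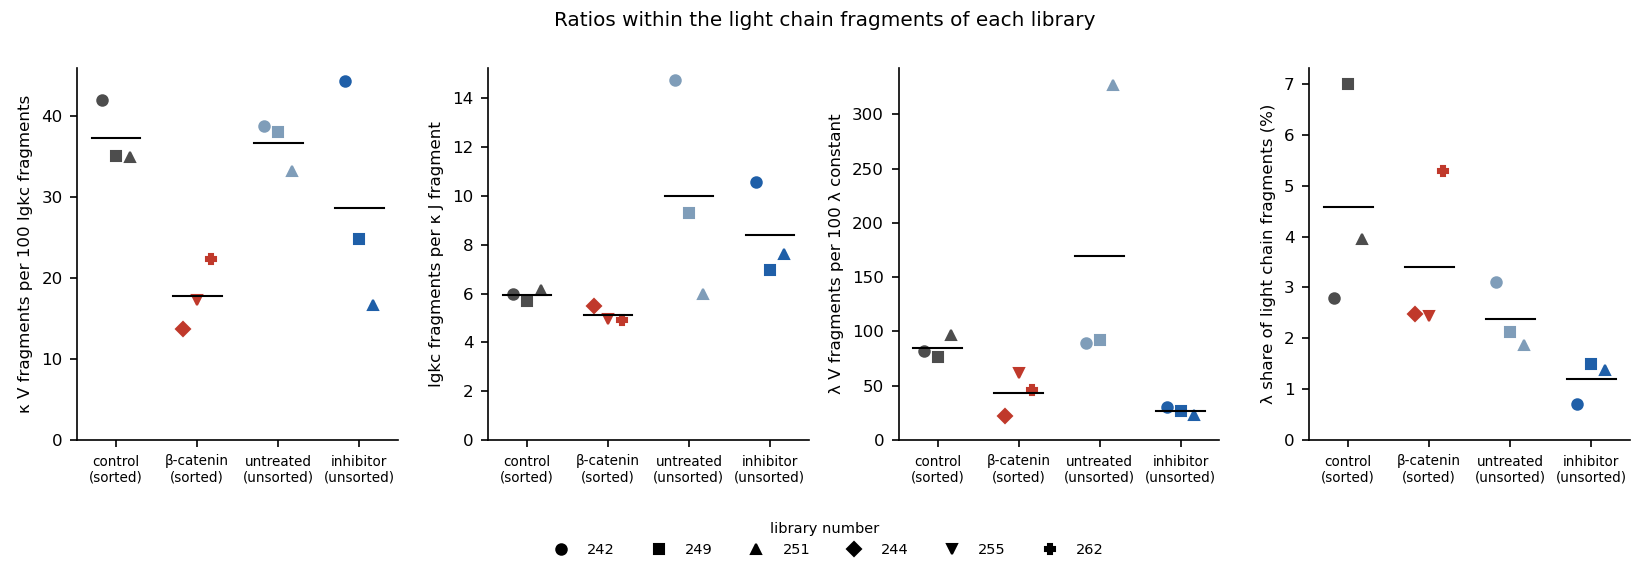
Ratios within the light chain fragments of each library, by group; symbols are library numbers and bars are means of 3 libraries. κ V per 100 Igkc is 13.8 to 22.4 in the β-catenin libraries and 35.0 to 42.0 in the controls, and λ V per 100 λ constant fragments is 23.2 to 30.8 with the inhibitor.

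Relative to the B lineage markers, Igkc was higher in both treated groups. For 1000 FPKM of the 7 summed markers, Igkc stood at 50.3 to 131 FPKM in the controls and 319 to 1824 in the β-catenin libraries. The corresponding values were 111 to 154 in the untreated and 1170 to 1890 in the inhibitor libraries. Neither pair of groups overlapped, and the denominator itself differed between them, as given above. Vpreb1 and Igll1 of the surrogate light chain, which fell with the inhibitor, are among the 7 markers.

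λ chains were a small part of the light chain fragments in each library. The λ share was 2.80%, 7.0% and 3.96% in the controls and 2.49%, 2.43% and 5.29% in the β-catenin libraries. In the untreated libraries it was 3.10%, 2.13% and 1.87%, and in the inhibitor libraries 0.712%, 1.503% and 1.37%. The 95% exact binomial intervals, which cover counting error only, ran from 1.88% to 3.22% for the least covered library, 244, and from 0.648% to 0.781% for inhibitor library 242. The inhibitor libraries were the lowest of the 4 groups, below their untreated partners in each pair and without overlap. The λ fragments themselves overlapped, at 9.25, 9.58 and 15.2 fpm with the inhibitor and 20.3, 9.76 and 10.2 without.

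Within the λ locus the members moved in opposite directions with the inhibitor. Iglv3, 1 of the 3 V segments, fell from 13.0, 8.41 and 16.1 FPKM to 3.66, 3.31 and 7.23 FPKM (log2 fold change -1.26 ± 0.33 SE, adjusted p = 0.0441, limma). Iglv1 went from 10.9, 3.41 and 4.25 FPKM to 1.75, 1.88 and 0.0665 FPKM and was called with the block (adjusted p = 0.0110). Iglc3 went the other way, from 9.98, 5.23 and 3.09 FPKM to 13.0, 13.0 and 24.4 FPKM, with an adjusted p of 0.0636 without and 0.0325 with the block. Iglc1 went from 13.0, 4.95 and 1.71 FPKM to 1.92, 3.36 and 2.06 FPKM and did not pass (adjusted p = 0.371).

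Iglj3, the functional J segment that pairs with Iglc3, had 6, 4 and 5 fragments in the inhibitor libraries and none in the 3 untreated libraries. With a floor of 3 fragments over the untreated group, this was at least 4.91-fold higher. It passed the filter through the inhibitor libraries alone and so had to differ, and its p is not given. The counts are few, and in FPKM they read 3.28, 2.77 and 3.42 because the segment is short. For 100 λ constant fragments there were 88.9, 92.2 and 327 λ V fragments in the untreated and 30.8, 27.0 and 23.2 in the inhibitor libraries. Iglc2 and Iglc3 are 95.6% identical and Iglv1 and Iglv2 96.7% identical over their aligned bases, so counts of these pairs can be split between them. Iglc2 held at most 20 fragments in any library, Iglc4 held 6 fragments in control 242 and none elsewhere, and Iglj2 and Iglj4 were at 0 throughout.

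In the sorted libraries the λ members varied most between libraries of 1 group. Iglc1 was at 3.15, 21.6 and 5.31 FPKM in controls 242, 249 and 251 and at 0.375, 3.10 and 7.90 FPKM with stabilised β-catenin (adjusted p = 0.324, limma). Iglc3 was at 2.99, 19.4 and 6.16 FPKM against 1.74, 7.19 and 20.0 FPKM (adjusted p = 0.940). Control 249 was the highest control for both. Of the J segments, Iglj1 had 8, 21 and 3 fragments in the controls and 0, 11 and 1 in the β-catenin libraries, and Iglj3p had at most 16 in any library. Of the 7 λ members tested here none passed with limma or with voom, and Iglv3 was nearest (adjusted p = 0.0553) and the only λ member with an unadjusted p under 0.05. Without control 242 it was called, lower with stabilised β-catenin (adjusted p = 0.0263).

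With stabilised β-catenin, 10 κ V segments were called and each was lower. The test covered the 40 members that reached 1 FPKM in 3 or more of the 6 libraries, and 140 members were not tested. Over all 12813 genes tested, 36.3% were called, 18.6% higher and 17.7% lower. The members' median log2 fold change was -0.50, against -0.02 for all genes. Of the 10, all but Igkv3-7 and Igkv3-4 passed the filter through the controls alone. These 8 had to differ, so their number is no support and their p-values are not given. Another 2 members had an unadjusted p under 0.05 only, so that 12 did in all, and voom on the recovered fragments called 9. Without library 244 there were 16 calls, 4 of them higher, where 41% of genes were called, 19.6% higher and 21.4% lower. Without control 242, 249 or 251 there were 1, 0 and 0 calls. In these fits 2 of the 10 still passed the filter and neither passed the test, with lowest adjusted p of 0.0512, 0.0644 and 0.0633, and the 1 call was Iglv3 of the λ locus.

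Igkv6-20 showed the greatest fall. It was at 20.3, 37.2 and 23.5 FPKM in the controls and at 0, 0.321 and 0.159 FPKM in the β-catenin libraries, from 377, 581 and 281 against 0, 6 and 2 fragments. The groups did not overlap, and the log2 fold change was -4.55 ± 0.25 (SE). In the controls it made up 14.4% of κ V fragments on average, and in the β-catenin libraries 0.136%. Its nearest relative, Igkv6-29, is 98.7% identical and was at 1.34, 2.74 and 1.04 FPKM in the controls and 0 in all 3 β-catenin libraries, at least 27.2-fold lower. Because both were low, a split of fragments between them does not change the direction.

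The other called segments were Igkv3-7, Igkv3-4, Igkv3-12, Igkv9-124, Igkv9-120, Igkv14-118-2, Igkv1-135 and Igkv1-117. Igkv3-7 had 161, 246 and 119 fragments in the controls and 1, 23 and 39 with stabilised β-catenin (log2 fold change -2.59 ± 0.54 SE, adjusted p = 0.0158, limma). Igkv14-118-2, annotated as a pseudogene, had 50, 39 and 19 fragments against none, at least 38.1-fold lower. Igkv3-4 had 94, 223 and 81 fragments against 2, 25 and 47, and was called in 6 of 13 alternatives. Igkv3-7 and Igkv3-12 are 96.7% identical, and Igkv9-124 and Igkv9-120 95.2%, so these calls are not independent of each other.

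Igkv14-111 was the first or the second κ V segment by fragments in each control and in each β-catenin library. It was at 24.3, 26.1 and 33.5 FPKM in the controls and 1.62, 16.0 and 13.6 FPKM with stabilised β-catenin. Without library 244 it was lower, with a log2 fold change of -0.87 (adjusted p = 0.00725, limma). The other segments among the 10 highest V by mean fragments are Igkv3-10, Igkv3-2, Igkv3-5 and Igkv12-89, with Iglv1 of the λ locus. Igkv3-10 was at 4.95, 19.0 and 8.13 FPKM in the controls and 0, 8.52 and 8.35 FPKM in the β-catenin libraries, with overlap. Igkv3-2 was at 8.48, 9.67 and 7.04 FPKM against 0.281, 4.09 and 5.38 FPKM and was called without library 244 (adjusted p = 0.0211).

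**Figure D3:**
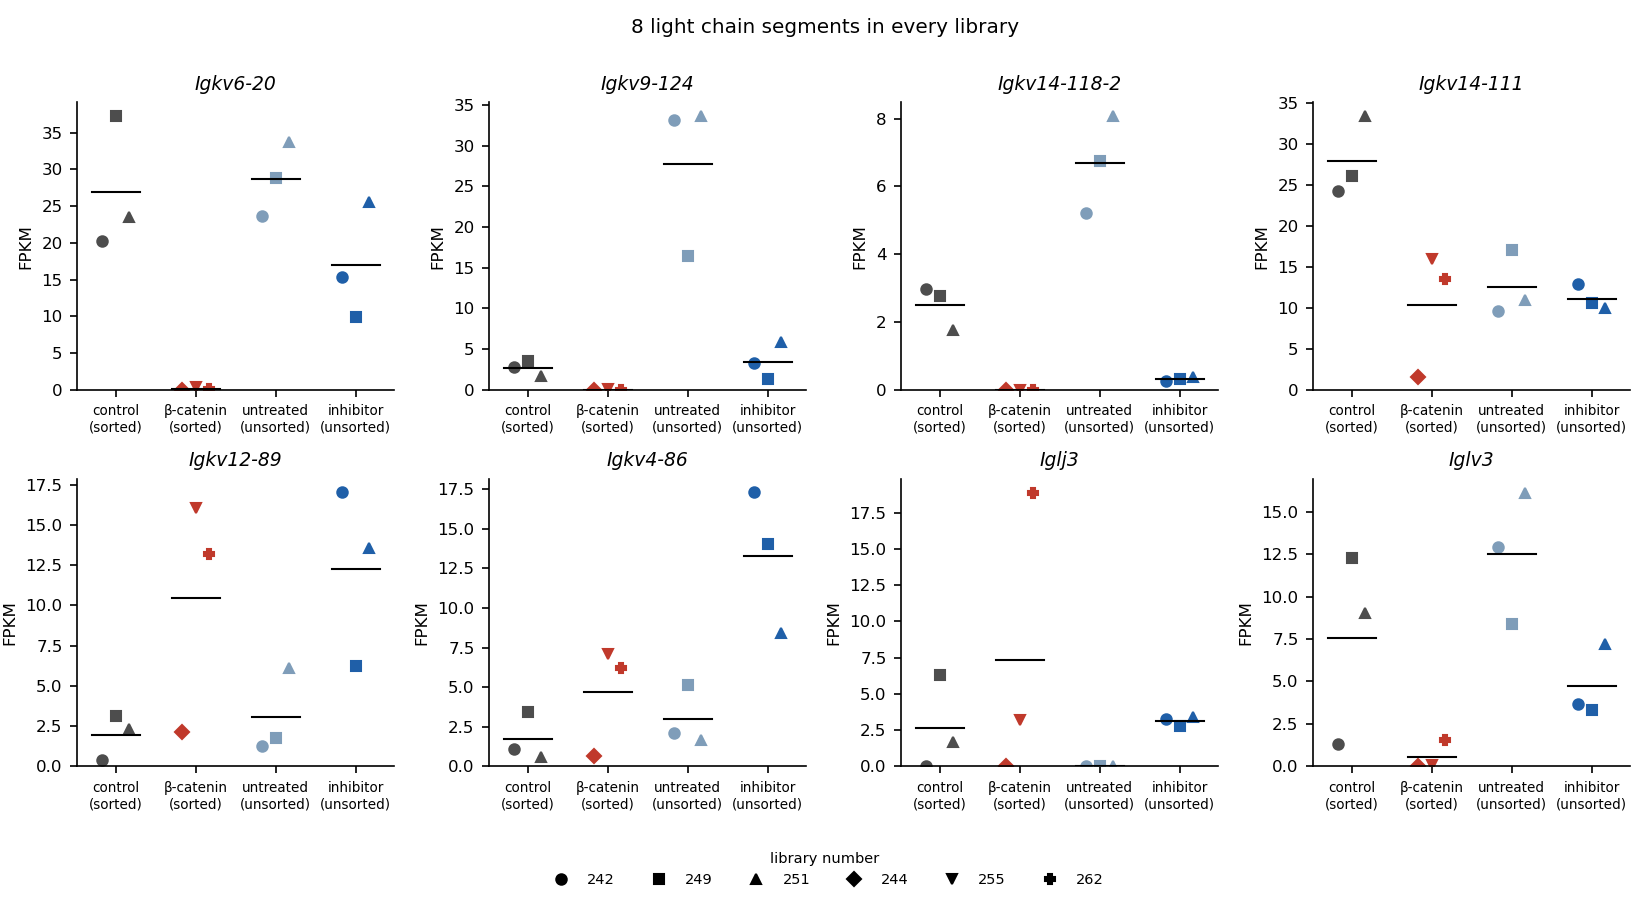
FPKM of 8 light chain segments in each library, by group; symbols are library numbers and bars are means of 3 libraries, on axes that start at 0. Igkv6-20 is near 0 in the β-catenin libraries alone, and Igkv14-118-2 is low in both treated groups. Igkv9-124 is high in the untreated libraries alone and low in the controls as well as in both treated groups. Igkv12-89 and Igkv4-86 are highest in treated libraries.

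Of the 162 κ V segments, 121 had a fragment in a sorted library. Their mean was lower with stabilised β-catenin for 96 and higher for 25. In 52 the groups did not overlap and the β-catenin libraries were lower, and in 1 they were higher. Over all genes above 0 in these libraries, 18.4% were lower and 18.9% higher without overlap. The number of V segments expected in 200 κ V fragments was 48.3, 58.7 and 48.7 in the controls and 27.8, 34.4 and 35.6 in the β-catenin libraries. The effective number of V segments, the inverse of the summed squared shares, was 14.1, 22.5 and 12.5 in the controls and 13.0, 13.9 and 17.2 in the β-catenin libraries. The groups did not overlap in the first measure, to which rare segments contribute most, and overlapped in the second, which the abundant segments set.

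Members of the Igkv4 family were nearly absent from the β-catenin libraries outside 1 stretch. The 29 members outside it held 2.52, 8.85 and 3.91 fpm in the controls and 0.213, 0.201 and 0.538 with stabilised β-catenin. The means were 5.09 ± 3.32 (SD, n = 3) and 0.317 ± 0.191. All 27 that had a fragment had a lower mean. The stretch, described below, was drawn after its values were seen. The 4 family members inside it are the only ones with a higher mean, so the count of 27 is no support. The whole family held 6.05%, 10.4% and 7.39% of κ V fragments in the controls and 15.7%, 14.8% and 9.48% in the β-catenin libraries, with overlap. The Igkv3 family of 13 segments, in the part nearest to the J segments, held 26.6%, 28.3% and 25.7% of κ V fragments in the controls and 4.80%, 18.3% and 19.2% in the β-catenin libraries.

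The stretch from Igkv4-92 to Igkv13-85, chr6:68755038-68930734, held a larger share of κ V fragments in both treated groups. It holds 9 members, 7 functional V segments on the minus strand and 2 pseudogenes on the plus strand, 1792 to 1967 kb upstream of Igkj1. The stretch was noticed after its values were seen, so no test is given for it. It took 1.95%, 4.16% and 4.14% of κ V fragments in the controls and 41.9%, 37.3% and 23.4% in the β-catenin libraries. In the unsorted libraries its share was 2.45%, 3.37% and 4.29% untreated and 7.51%, 11.6% and 13.3% with the inhibitor.

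Neither pair of groups overlapped in that share. In fpm the stretch stood at 0.987, 4.33 and 2.47 in the controls and 2.04, 15.0 and 12.8 in the β-catenin libraries, where library 244 lies among the controls. With the inhibitor it was higher in each pair, going from 4.13, 3.86 and 5.10 to 27.9, 13.0 and 18.8 fpm. Outside the stretch κ V fragments in the pairs changed by 2.09-fold, 0.90-fold and 1.08-fold. All 8 of its members with a fragment had higher means in both comparisons. Of the segments outside the stretch with a fragment, the mean was higher for 17 of 113 with stabilised β-catenin and for 85 of 120 with the inhibitor. The bounds of the stretch were set with these values known, so these counts are no support for it.

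Igkv12-89 had the highest mean fpm of the stretch in the β-catenin group, and Igkv1-88 in the control and inhibitor groups. Igkv12-89 had 7, 44 and 25 fragments in the controls and 34, 270 and 149 with stabilised β-catenin, and was called without library 244 (log2 fold change 2.53, adjusted p = 0.00651, limma). In the unsorted libraries it went from 18, 25 and 77 to 276, 80 and 176 fragments and was called with the block (adjusted p = 0.00952). Igkv4-90 had 0, 0 and 1 fragments in the controls and 1, 138 and 32 with stabilised β-catenin. Igkv4-86 and Igkv1-88 were also called higher without library 244, with adjusted p of 0.0231 and 0.0347. Of the windows of 50 bases in Igkv12-89, Igkv1-88, Igkv4-90 and Igkv4-92, none occurs in another member. For Igkv13-85 48.3% do, since Igkv13-84 is 96.2% identical.

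Outside the stretch, Igkv2-112 was the other segment called higher without library 244. It had 11, 28 and 14 fragments in the controls and 16, 160 and 244 in β-catenin libraries 244, 255 and 262 (log2 fold change 2.74, adjusted p = 0.00287). Igkv2-109, of the same family, had 84, 83 and 79 against 9, 82 and 163, with overlap. Across 116 κ V segments with at least 10 fragments, log2 levels correlated at r = 0.73 to 0.89 between the 3 β-catenin libraries and at r = 0.84 to 0.88 between the controls. Between the 2 groups r was 0.34 to 0.54. These are correlations across segments that share libraries and depth, given as a description.

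**Figure D4:**
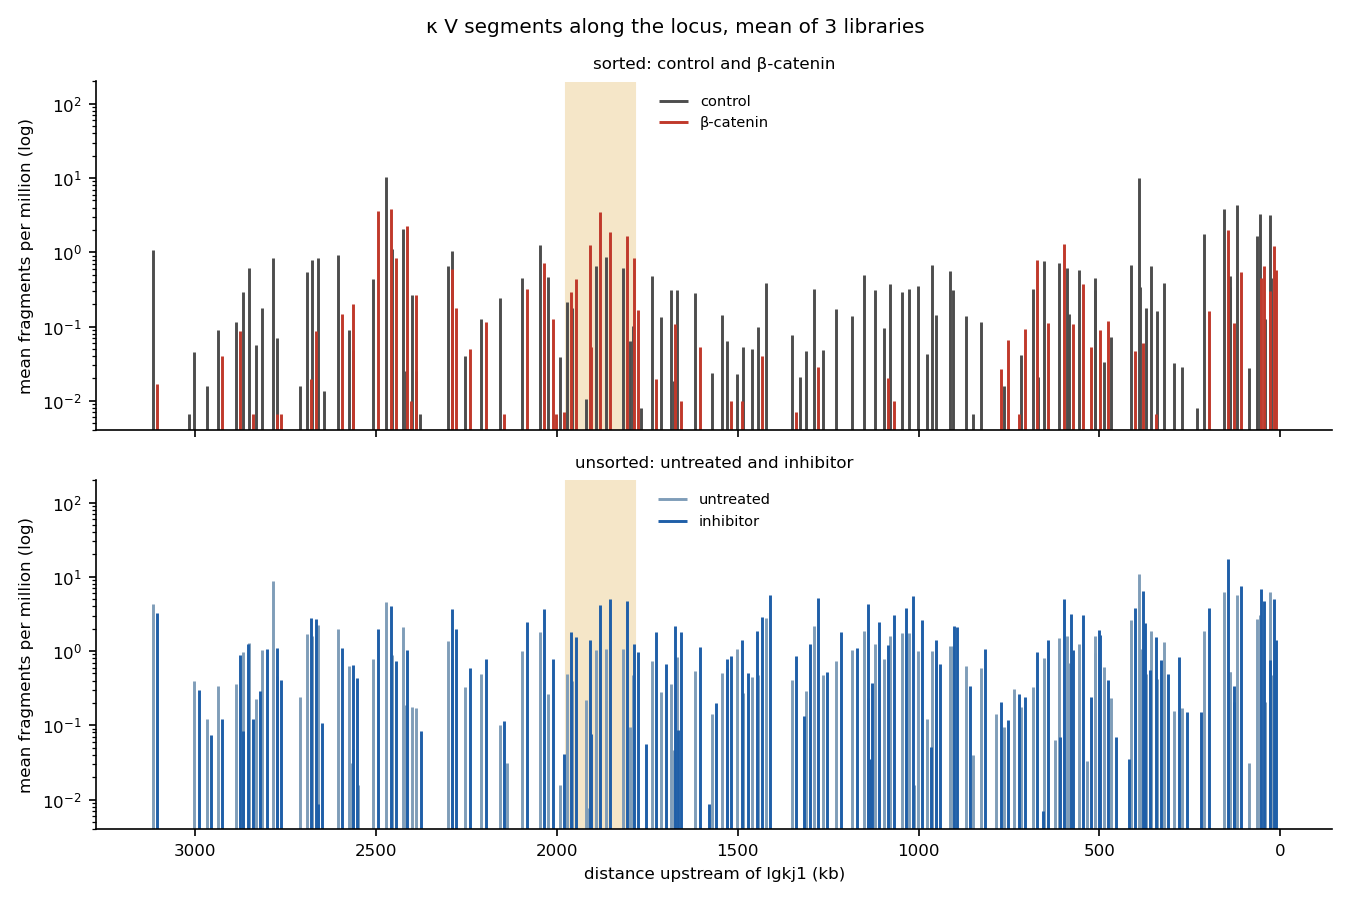
Mean fpm (log axis, n = 3) of each κ V segment against its distance upstream of Igkj1 in kb; the shaded band is the stretch from Igkv4-92 to Igkv13-85. In the sorted libraries the β-catenin lines are tallest at Igkv14-111 and Igkv2-112, both outside the band, followed by the tallest line in the band. Some other lines outside the band are taller than the rest of those in the band. The Igkv4 segments outside the band are nearly empty in the β-catenin libraries.

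The κ V segments were also divided by order into a distal, a middle and a proximal part of 54 segments each, the proximal part being nearest to the J segments. The middle part held a larger share in both treated groups. It took 6.77% to 12.1% of κ V fragments in the controls and 25.2% to 46.3% in the β-catenin libraries, and 14.6% to 21.9% untreated against 30.0% to 33.7% with the inhibitor. The proximal part took 49.97% to 57.9% in the controls and 18.8% to 31.2% with stabilised β-catenin. In the unsorted libraries the distal part took 28.2% to 35.1% untreated and 17.1% to 21.5% with the inhibitor. All 38 middle segments with a fragment in the unsorted libraries had a higher mean with the inhibitor. The middle part includes the stretch described above. Its 45 segments outside the stretch took 4.82%, 7.98% and 5.13% of κ V fragments in the controls and 4.37%, 0.698% and 1.75% in the β-catenin libraries, so the larger share there was that of the stretch. Of the 27 with a fragment, 26 had a lower mean with stabilised β-catenin. The stretch was left out with its values known, so this count is no support. In the unsorted libraries the same 45 segments took 11.2% to 19.4% untreated and 20.3% to 22.5% with the inhibitor.

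Segments that lie in the same direction as the J segments are joined by deletion, and those in the opposite direction by inversion. The 86 opposite segments held 49.4% to 55.3% of κ V fragments untreated and 57.4% to 59.7% with the inhibitor. In the sorted libraries they held 34.9% to 42.2% in controls and 37.6% to 62.9% with stabilised β-catenin, with overlap. The 61 segments annotated as V pseudogenes held 3.17% to 5.77% in the controls against 0.437% to 2.19% in the β-catenin libraries. In the unsorted libraries they held 5.03% to 7.20% untreated against 2.42% to 2.73% with the inhibitor. These shares lean on Igkv14-118-2 and Igkv14-126-1. Of the 145, 137 and 71 pseudogene fragments in the controls, this pair held 50, 39 and 19 and 40, 10 and 25. Of the 367, 246 and 319 untreated, it held 75, 98 and 102 and 38, 48 and 66. Pseudogene means were higher for 17 and lower for 13 with the inhibitor, and for 4 and 19 with stabilised β-catenin.

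With the inhibitor, 10 of 97 tested members were called, 6 higher and 4 lower, and 83 were not tested. Over all 12685 genes 18.1% were called, 8.47% higher and 9.6% lower. The members' median log2 fold change was 0.60, against -0.03 for all genes. With the library number as a block 42 members were called, 34 higher and 8 lower, and the 10 were among them. In that fit 30.1% of all genes were called, 14.1% higher and 16% lower. Of the 10, Igkv14-118-2 and Igkv14-126-1 passed the filter through the untreated libraries alone and Igkv13-85, Igkv4-90 and Iglj3 through the inhibitor libraries alone. These 5 had to differ, and their p-values are not given. Without both unsorted libraries 249 there were 17 calls, 14 of them higher. Leaving out untreated 242 gave 4 calls and leaving out inhibitor 242 gave 3. The share of all genes called was not computed for these fits without some libraries, so their counts cannot be set against it.

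The called V segments that fell were Igkv9-124, Igkv14-118-2, Igkv14-126-1 and Iglv3. Igkv9-124 was at 33.2, 16.4 and 33.6 FPKM in the untreated and 3.25, 1.32 and 5.85 FPKM in the inhibitor libraries (log2 fold change -2.75 ± 0.45 SE, adjusted p = 0.00944, limma). Igkv14-118-2 went from 5.22, 6.76 and 8.07 FPKM to 0.245, 0.310 and 0.383 FPKM (log2 fold change -2.53 ± 0.21 SE). Neither overlapped between the groups. Igkv14-126-1 went from 38, 48 and 66 fragments to 0, 4 and 10. It and Igkv14-118-2 are pseudogenes of the same family and 96.8% identical. Igkv9-124 and Igkv14-118-2 were also among the segments lower with stabilised β-catenin. Igkv6-20 went from 376, 463 and 471 to 276, 142 and 369 fragments and was called with the block (adjusted p = 0.0241).

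The called V segments that rose were Igkv4-86, Igkv4-69, Igkv13-85 and Igkv4-90, of which Igkv4-69 alone lies outside the stretch. Igkv4-86 was at 2.10, 5.15 and 1.64 FPKM untreated and 17.3, 14.1 and 8.40 FPKM with the inhibitor (log2 fold change 1.89 ± 0.39 SE, adjusted p = 0.0204). Igkv4-69 went from 18, 32 and 10 to 252, 73 and 57 fragments (adjusted p = 0.0381). Igkv4-90 went from 7, 8 and 11 to 59, 80 and 32 fragments. The groups did not overlap for any of these. The abundant Igkv3-10 went from 345, 265 and 153 to 1654, 318 and 373 fragments and was called with the block (log2 fold change 1.20, adjusted p = 0.0155).

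Of the 33 members of the Igkv4 family, 32 had a fragment in the unsorted libraries, and each of these had a higher mean with the inhibitor. The family held 23.3%, 15.4% and 16.7% of κ V fragments untreated and 31.1%, 31.0% and 26.7% with the inhibitor. Over all κ V segments, 93 of 128 with a fragment had a higher mean. In 13 the inhibitor libraries were higher without overlap and in 7 lower, where 10.6% and 12.7% of all genes above 0 were. Inhibitor library 242 held 17903 κ V fragments, against 4264 and 5431 in the other inhibitor libraries, so means over this group lean on it. The number of V segments expected in 200 fragments was 62.8 to 67.7 untreated and 62.1 to 68.0 with the inhibitor, with overlap.

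The effects of stabilised β-catenin and of the inhibitor were compared directly in a fit of all 12 libraries. Of 99 members tested, 4 differed, and in each the β-catenin effect was the lower, where 9.12% of all 13861 genes were called, 6.07% higher and 3.05% lower. Igkv6-20 differed by -3.74 ± 0.44 on the log2 scale (SE, adjusted p = 0.00164, limma), Igkv3-12 by -2.74 (adjusted p = 0.0217) and Igkv6-29 by -2.11 (adjusted p = 0.0241). Igkv4-69 differed by -2.03. It had 1, 5 and 5 fragments in the controls and 0, 0 and 4 with stabilised β-catenin, and passed the filter through the unsorted libraries alone. Its difference therefore restates its rise with the inhibitor, its call is no support and its p is not given. For Igkc the difference was -1.45 ± 0.92 (adjusted p = 0.339). The 2 comparisons also differ in sorting and in the overnight culture. Leaving out control 242, control 249, β-catenin 262 or untreated 251 gave 2, 1, 2 and 1 calls, and leaving out inhibitor 249 gave 13.

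Sorted controls and untreated overnight cultures differed in the κ V segments as well, which bears on values set side by side across them. Of 77 members tested, 11 were called, 10 lower and 1 higher in the controls, where 8.3% of 12513 genes were called, 4.29% lower and 4.01% higher. Of these 11, Igkv4-72, Igkv4-73 and Igkv11-125 passed the filter through the untreated libraries alone and so had to differ. Igkv14-111 was the higher one, at 24.3, 26.1 and 33.5 FPKM against 9.69, 17.0 and 10.9 FPKM (log2 fold change 1.12 ± 0.22 SE, adjusted p = 0.0302, limma). Igkv9-124 was the most different, at 2.77, 3.53 and 1.66 FPKM in the controls and 33.2, 16.4 and 33.6 FPKM in the untreated libraries (log2 fold change -2.94 ± 0.32 SE, adjusted p = 0.00781). Igkv4-68, Igkv4-59, Igkv4-51, Igkv1-135, Igkv8-21 and Igkv14-118-2 were the other lower members, with adjusted p from 0.0266 to 0.0356. Igkc was at 226, 558 and 321 FPKM against 816, 565 and 671 FPKM (adjusted p = 0.0975). Without control 242, 249 or 251 there were 1, 3 and 0 calls, and without untreated 242 or 251 there were 3 and 1.

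The surrogate light chain genes, which precede the light chain in development, were low in both treated groups. Vpreb1, Vpreb2 and Igll1 encode the surrogate V-like and constant-like chains, and Vpreb3 a related protein. All 4 fell with the inhibitor (limma). Vpreb1 went from 2103, 1646 and 2085 FPKM to 120, 147 and 127 FPKM (log2 fold change -3.88 ± 0.14 SE, adjusted p = 7.72e-05), and Igll1 from 1331, 1044 and 1188 FPKM to 101.0, 113.6 and 90.3 FPKM. With stabilised β-catenin Vpreb2 alone passed (log2 fold change -4.43 ± 1.25 SE, adjusted p = 0.0377). Vpreb1 was at 6.04, 408 and 257 FPKM there, against 1282 to 1676 FPKM in the controls, so each of its β-catenin libraries lay below each control.

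**Figure D5:**
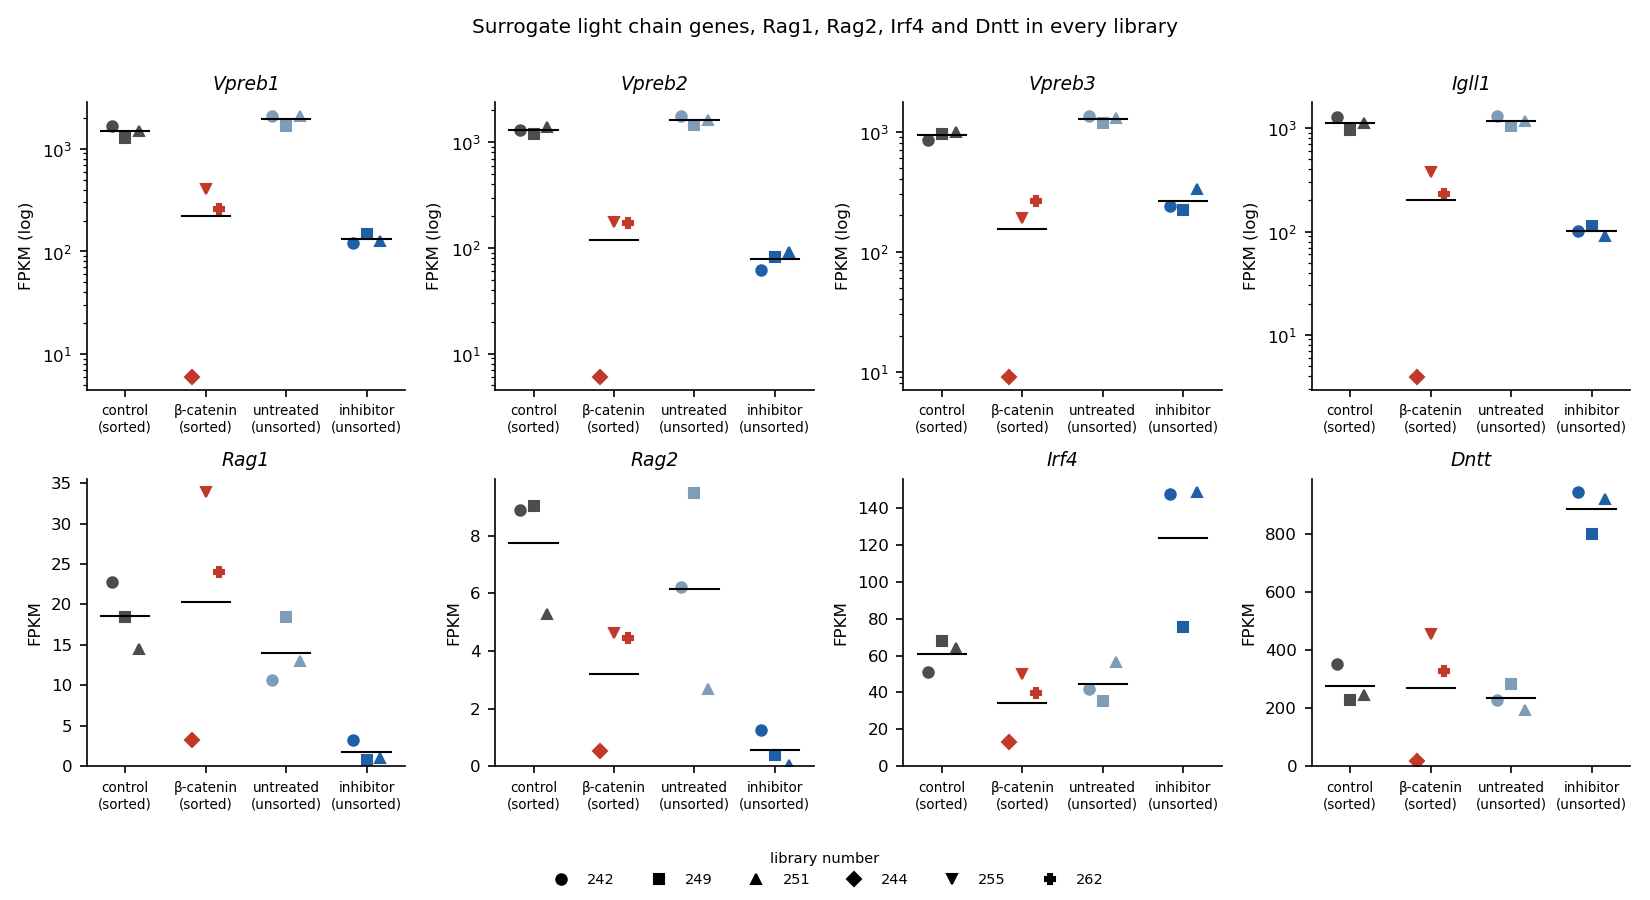
FPKM of the 4 surrogate light chain genes (log axes) and of Rag1, Rag2, Irf4 and Dntt (axes from 0) in each library, by group; symbols are library numbers and bars are means of 3 libraries. The surrogate genes are low in both treated groups, and Rag1 and Rag2 are low and Irf4 and Dntt high in the inhibitor libraries.

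Of 15 genes of recombination and end joining, 2 rose and 4 fell with the inhibitor, and 9 did not pass, where 18.1% of all genes tested were called. Rag1, a subunit of the recombinase, fell from 10.7, 18.4 and 13.0 FPKM to 3.29, 0.840 and 1.06 FPKM (log2 fold change -2.54 ± 0.37 SE, adjusted p = 0.00602, limma). Rag2, its partner, fell from 6.22, 9.49 and 2.69 FPKM to 1.28, 0.398 and 0.0295 FPKM (adjusted p = 0.0237). Dntt, which adds bases at the joints, rose from 228, 283 and 194 FPKM to 944, 800 and 921 FPKM (adjusted p = 0.000707). With stabilised β-catenin 2 of the 15 fell, Hmgb1 and Hmgb2, which encode DNA-bending proteins that assist the recombinase, and 13 did not pass, where 36.3% of all genes tested were called. Rag1 was at 3.23, 33.9 and 24.0 FPKM there and at 22.7, 18.4 and 14.5 FPKM in the controls.

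Of 32 regulators of light chain transcription and recombination, 5 rose and 10 fell with the inhibitor, and 9 rose and 11 fell with stabilised β-catenin. Over all genes tested, 8.47% rose and 9.6% fell with the inhibitor, and 18.6% and 17.7% with stabilised β-catenin. Irf4, a factor that binds the κ 3' enhancer, rose from 42.0, 35.3 and 56.4 FPKM to 148, 75.5 and 149 FPKM with the inhibitor. It was at 12.9, 50.002 and 39.5 FPKM with stabilised β-catenin and 51.3, 67.8 and 63.9 FPKM in the controls, and the effects differed by -2.42 on the log2 scale (adjusted p = 0.0378, limma). Spib, an ETS factor, fell in both, by 4.57 on the log2 scale with stabilised β-catenin (adjusted p = 0.0267) and by 4.38 with the inhibitor (adjusted p = 0.000784). Pou2f2, the octamer factor OCT2, fell by 3.19 with the inhibitor, and Ccnd3, a D cyclin, by 2.13 with stabilised β-catenin and 2.74 with the inhibitor. Id2, an inhibitor of E proteins, was higher by 4.32 with stabilised β-catenin, together with the NK and innate lymphoid markers given above.

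Of 12 receptor chains and signalling genes, 7 fell and 1 rose with the inhibitor, and 6 fell with stabilised β-catenin. Over all genes tested 9.6% fell with the inhibitor and 17.7% with stabilised β-catenin. Cd79b, a signalling chain of the receptor, fell by 2.15 on the log2 scale with the inhibitor (adjusted p = 0.00166, limma) and by 3.88 with stabilised β-catenin (adjusted p = 0.0276). Blk, Blnk and Btk, a kinase, an adaptor and a kinase of that receptor, fell in both comparisons. The medians of the list were -0.99 and -1.72, against -0.03 and -0.02 over all genes tested. These falls came with the lower B lineage marker sums given above. Cd79a, Cd79b and Blnk belong to both the list and that sum, so the list and the sum are not independent. The lists share their libraries with the light chain values beside them, and no relation between them was tested.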

How the data were processed

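RNA of 12 libraries was measured by bulk RNA-seq. The submitters' processing notes name HISAT2, HTSeq, Cufflinks and the genome builds GRCm38 and mm10. FPKM values were deposited by the authors in 1 table. How fragments that overlap 2 segments were counted is not given in the sources used here. Whole fragments were recovered from the FPKM steps for 25186 genes. For all 148 non-zero members the length used was the mean GENCODE M21 transcript length. Counted fragments ranged from 31944983 to 49815361 per library. Intervals cover counting error only.

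Tests used limma 3.58.1 in R 4.3.3, with trend, on log2(FPKM + 1), for genes that reached 1 FPKM in 3 or more libraries of the fit. P-values were adjusted by Benjamini-Hochberg over all genes tested, and 0.05 was the threshold. Fold changes on this scale understate low genes. The steps were checked on simulated data with the same spread for all genes and libraries. No simulated library stood apart from its group, so the check does not cover libraries that do. Segment sequences and positions come from GENCODE M21, and shared windows and identities were computed with Biopython 1.88. For 8 members whose symbol the table gives to 2 rows, the M21 symbols were used.

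The genes named are each constant and J segment, the 10 V segments with the highest mean fragments, up to 8 called V segments per comparison and up to 4 called genes per list. Calls beyond the first 8, Igkv1-88, Igkv2-109, Igkv2-112, Igkv4-92, Igkv13-84 and the stretch they border were named after their values were seen, as were the relatives of named segments. One gene of the marker and receptor lists is not reported here and was left out of their sums and counts. Members and lists were chosen with earlier results of these data known. Same-numbered inhibitor and untreated libraries deviated together over 12685 genes (r = 0.61, 0.77 and 0.36 for 242, 249 and 251), and the numbers were taken as pairs. Libraries of different numbers had r from -0.66 to 0.38. The highest of these, inhibitor 251 with untreated 242, lay above the pair 251, so r does not set that pair apart. For control and untreated libraries r was 0.14, 0.12 and 0.0005, and the block is given only among the alternatives. The alternatives changed the pseudocount, filter, normalization, libraries, pairing and values.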

Additional observations from a re-analysis of the deposited data

How the results depend on the processing

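Counts of called members moved with the filter, the pairing and single libraries; the cause was not tested beyond what each alternative's construction shows. For β-catenin against control (10 calls), no filter gave 18, a filter of 5 FPKM 3 and a fit of all 12 libraries 16. For inhibitor against untreated (10), no filter gave 5, the replicate block 42 and leaving out both libraries 249 gave 17. For control against untreated (11), no filter gave 3, 5 FPKM 5, all 12 libraries 6, voom on recovered fragments 7 and the replicate block 3. For the difference of effects (4), a pseudocount of 0.1 gave 13 and no filter 2. Leaving out 1 library gave 0 to 16, 3 to 15, 0 to 12 and 1 to 13 calls in these 4 comparisons. Shares over all genes were computed only for the inhibitor fit with the block and the fit without β-catenin 244. The other counts here show how far the calls moved and cannot be set against such a share.

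The log2 ratio of summed κ FPKM was -0.13 for β-catenin against control (-0.50 to 0.36 with 1 library left out), 0.97 for inhibitor against untreated (0.83 to 1.18) and -0.56 for control against untreated (-1.01 to -0.31). For λ it was -0.60 (-1.67 to 0.54), 0.02 (-0.24 to 0.46) and 0.61 (-0.53 to 1.06). The λ share of the untreated libraries was 1.61% by summed FPKM and 2.37% by fragments. In refits of the single called members the call held in 304 and was lost in 142, and none changed sign. Refits in which a member did not pass the filter are in neither count. Low counts limit the λ J segments and library 244.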
